A study of Sus scrofa with 6 samples.

Results

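The protocadherin genes of pig chromosome 2 were measured in whole embryos at embryonic day 21. Their members were all chromosome 2 genes whose symbol begins with PCDH or whose annotated transcript product contains the word protocadherin, and 38 genes met that rule among the 29838 genes in the deposited tables. They comprised 8 alpha, 12 beta and 16 gamma genes, which lie in a row on the plus strand, and the separate genes PCDH1 and PCDH12 on the minus strand. The 46 annotated transcripts of these genes were all present in the tables. RNA sequencing was compared between 3 parthenogenetic embryos (PA), which arose from oocytes activated by electric pulses and therefore carry maternal genomes and no paternal one, and 3 control embryos (CN) from natural mating. All 6 samples were whole embryos labelled as Landrace x Yorkshire x Duroc, the controls as untreated. By the study's methods the PA oocytes came from ovaries of that cross, whereas the CN dams were Landrace x Yorkshire gilts and the breed of their boars is not given. The PA embryos grew in surrogate gilts and the CN embryos in the mated gilts themselves, so that the manner of conception, in vitro maturation, transfer and the cross of the egg donors cannot be told apart in this comparison. A whole embryo mixes many tissues, and more cells of a type cannot be told apart from more RNA per cell.

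Protocadherins are membrane proteins of the cadherin superfamily. In mammals the alpha, beta and gamma clusters stand side by side, and each neuron transcribes a subset of the genes, so that the combination on its surface serves in self-recognition and in the wiring of neurites. In the alpha and gamma clusters each variable first exon has its own promoter and encodes the extracellular, membrane and first intracellular segments, and it is spliced to constant exons at the end of the cluster. Beta genes have no constant exons and are usually single-exon genes. The clusters are best known in the nervous system, and promoter choice there involves a conserved element before the variable exons, CTCF and cohesin. Outside the clusters, PCDH1 is known from epithelia and PCDH12 is a protocadherin of endothelial cells.

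The first sequence feature that the members share, and that the choice of members did not use, lies before their coding starts. The motif GNCGCTG was read off the most frequent words of these same regions, so its share among the members is a description. It occurred on the coding strand within 300 bases before 33 of the 41 different coding starts of the members, or 80.5%, and before 302 of the 2546 other coding starts of chromosome 2, or 11.9%. By group it stood before 7 of 11 alpha, 11 of 12 beta and 15 of 16 gamma coding starts, and before neither that of PCDH1 nor that of PCDH12. Counted on either strand, the shares were 85.4% for the members and 21.5% for the other starts. Where a start had more than 1 match, as 2 beta and 3 gamma starts did, the match farthest from the start was taken. The letters around the core of these matches, 1 per start, differed in frequency between clusters: those of the 11 beta starts and 1 of the 7 alpha starts read GGCGCTGC, 5 of the alpha starts had GTCGCTGT, and the 15 gamma starts divided into 7 with GTCGCTGT and 8 with GCCGCTGT. The nearer matches read GTCGCTGA in beta-4 and beta-4-like, GACGCTGC in gamma-A5 and GGCGCTGG in gamma-B4-like and gamma-B5-like. The following 37-base windows of Sscrofa11.1, all on the plus strand with the motif in capitals, were chosen to show the letters frequent in each cluster and the gene with the highest TPM.
alpha-1, chr2:142459961-142459997: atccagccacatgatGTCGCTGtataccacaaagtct
alpha-11, chr2:142524737-142524773: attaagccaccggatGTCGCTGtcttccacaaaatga
beta-4-like, chr2:142817403-142817439: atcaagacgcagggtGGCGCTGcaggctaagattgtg
beta-4, chr2:142843212-142843248: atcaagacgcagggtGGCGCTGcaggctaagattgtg
beta-11-like, chr2:142892558-142892594: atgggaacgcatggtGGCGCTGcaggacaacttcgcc
gamma-A1, chr2:142965763-142965799: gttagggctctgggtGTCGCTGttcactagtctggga
gamma-A9-like, chr2:143041232-143041268: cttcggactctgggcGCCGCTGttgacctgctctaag
gamma-B7, chr2:143054620-143054656: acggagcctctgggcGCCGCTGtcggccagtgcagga

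The windows of beta-4 and beta-4-like are identical. The plot of motif positions gives the distance from the farthest match to the coding start, whose median was 188 bases in the alpha cluster, 242 in the beta cluster and 236 in the gamma cluster. In the gamma cluster these 15 matches fell between 215 and 271 bases before the coding start. The nearer matches stood 194 bases before the start of gamma-A5, 220 before those of gamma-B4-like and gamma-B5-like, and 17 before those of beta-4 and beta-4-like. A match is no evidence of binding by any factor, and a window without the motif says nothing more than that these letters are not there.

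**Figure D1:**
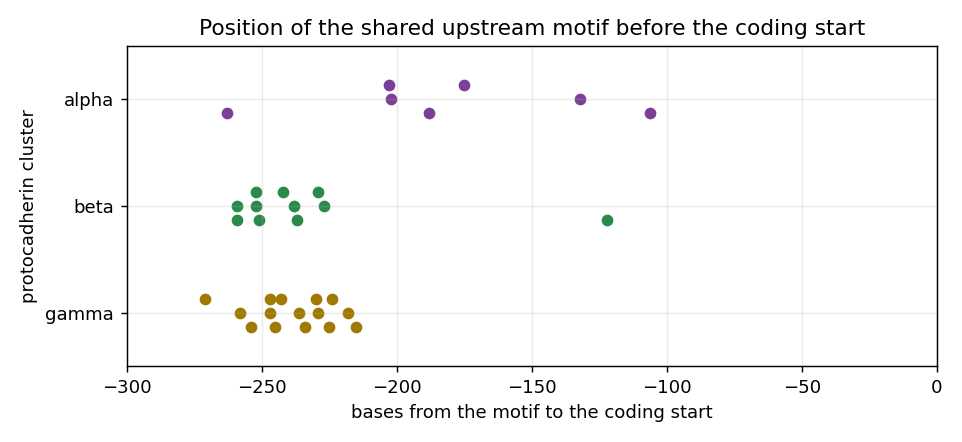
Distance in bases (x axis) from the motif GNCGCTG to the coding start at 0, with 1 point, the farthest match, for each coding start that has a match in the alpha (7), beta (11) and gamma (15) clusters; vertical offsets within a row only separate the points. The gamma points lie between 215 and 271 bases before the start, and the alpha points spread from 106 to 263.

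Shared sequence also bears on how well reads can be given to single members. The transcripts were compared by 31-base words, since reads from a stretch present in several transcripts have to be divided among them by estimation. The share of a gene's words found in no other gene had a median of 74.0% in the alpha, 74.9% in the beta and 79.75% in the gamma group, against 97.5% for PCDH12 and 99.9% for PCDH1. The lowest share, 37.1%, was that of beta-4, which has 2419 words in common with beta-4-like. Values of single cluster genes are therefore uncertain to a degree that the spread between embryos does not cover. The gene models differ in a further respect. The constant exons of the gamma cluster, of 59, 89 and 1923 bases, belong to 1 of the 19 annotated gamma transcripts, that of gamma-B7. In the alpha cluster the last constant exon of 2340 bases is carried, whole or in part, by 6 of 12 transcripts from 2 genes, the entry named alpha-C2 and alpha-11 (PCDHA11).

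Depth was 3100284 to 3573406 estimated counts per embryo, of which 99.65% to 99.71% lay on chromosome 2, so TPM (a level per length that sums to the same total in each embryo) is here a share of chromosome 2 transcripts. Protocadherins took 0.414%, 0.516% and 0.453% of the counts in CN1 to CN3 and 0.439%, 0.539% and 0.54% in PA1 to PA3. The transcript taken as H19 held 5.25% to 6.75% of TPM in CN and 13.7%, 8.29% and 7.15% in PA1, PA2 and PA3, and TPM of all other genes is relative to that. Counts were therefore also compared after TMM normalization.

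Levels differed far more between protocadherin genes than between embryos, as the plot of TPM by embryo shows. The gamma group held the most transcript, with a summed TPM of 819, 1182 and 984 in CN1 to CN3 and of 950, 1163 and 1240 in PA1 to PA3. The beta group followed with 149, 262 and 200 in CN and 166, 249 and 243 in PA. The alpha group had the lowest sum, 49.6, 57.3 and 50.5 in CN and 54.1, 73.8 and 66.1 in PA. This order of gamma, beta and alpha was the same in each of the 6 embryos. PCDH1 and PCDH12 together, with 143, 204 and 191 TPM in CN and 156, 183 and 177 in PA, overlapped the beta sums.

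**Figure D2:**
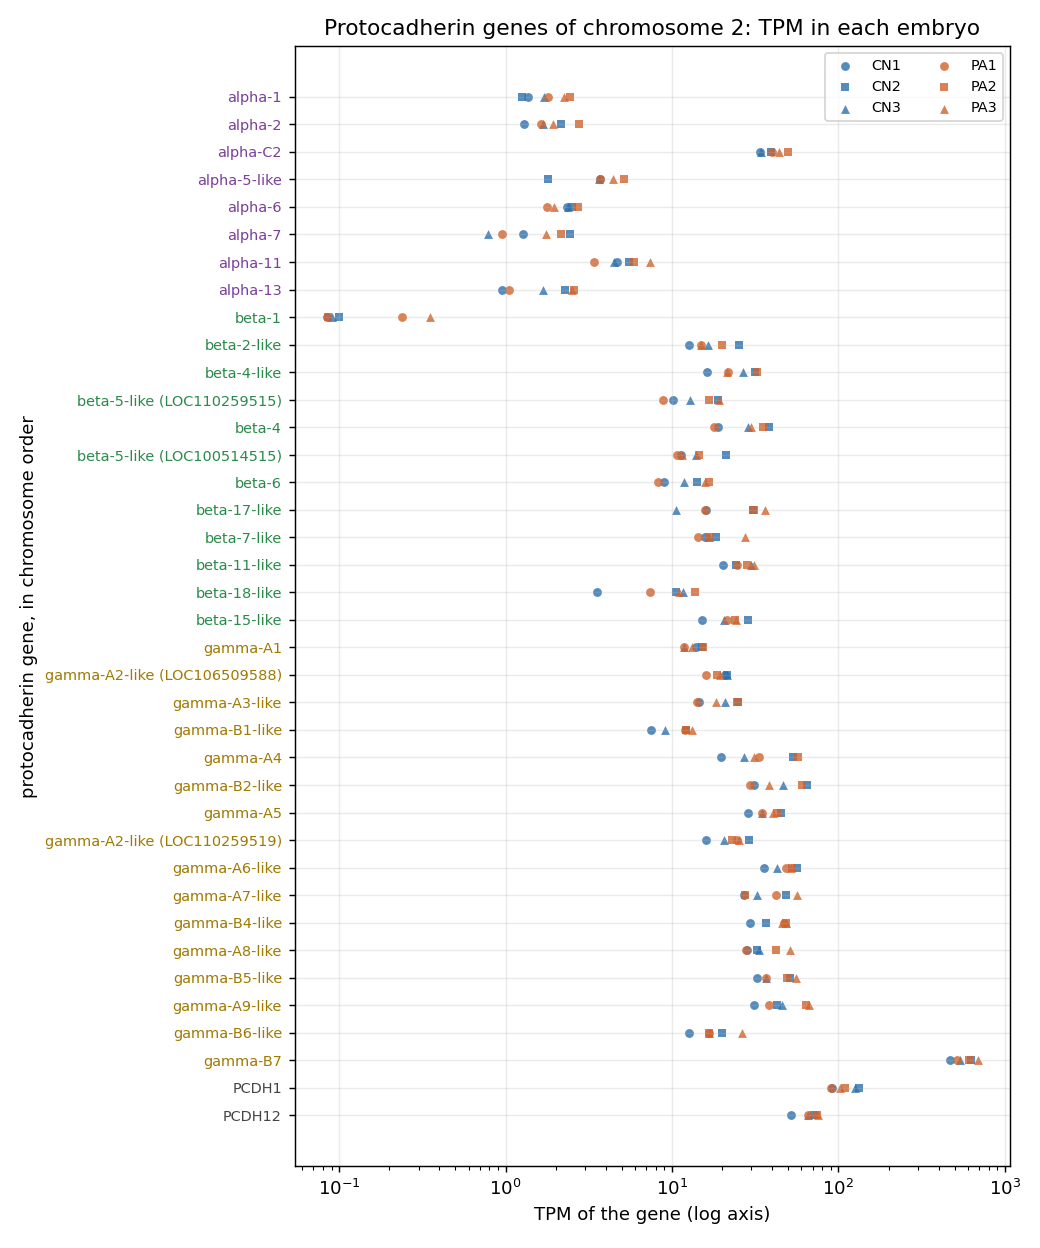
TPM of each of the 38 genes (x axis, log scale) in the 3 CN embryos (blue) and 3 PA embryos (orange), genes in chromosome order from top to bottom and coloured by group (alpha purple, beta green, gamma ochre, PCDH1 and PCDH12 grey); marker shapes give the replicate number. Gamma-B7 lies between 471 and 688 TPM, the alpha genes other than alpha-C2 lie between 0.784 and 7.34 TPM, and the colours overlap in most rows.

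Summed by group, PA and CN differed little. The ratio of mean TPM, PA over CN, was 1.23 for the alpha, 1.12 for the gamma and 1.08 for the beta group and 0.96 for PCDH1 and PCDH12. Means were 64.6 ± 9.93 (SD, n = 3) in PA and 52.5 ± 4.24 in CN for alpha, 219 ± 46.3 and 204 ± 56.2 for beta, and 1118 ± 150.0 and 995 ± 181 for gamma. In TPM the embryos of both groups overlapped in all 4 sums, as the plot of group sums shows. After TMM normalization of the counts the ratios were 1.28, 1.17, 1.14 and 0.99 in the same order. On that scale the PA embryos stood above the CN embryos in the alpha sum (270.0, 332 and 274 normalised CPM against 236, 236 and 212) and in the gamma sum (3189, 3512 and 3517 against 2727, 3181 and 2834). In the gamma sum PA1 exceeded CN2 by a small margin, and the beta sums overlapped on both scales.

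**Figure D3:**
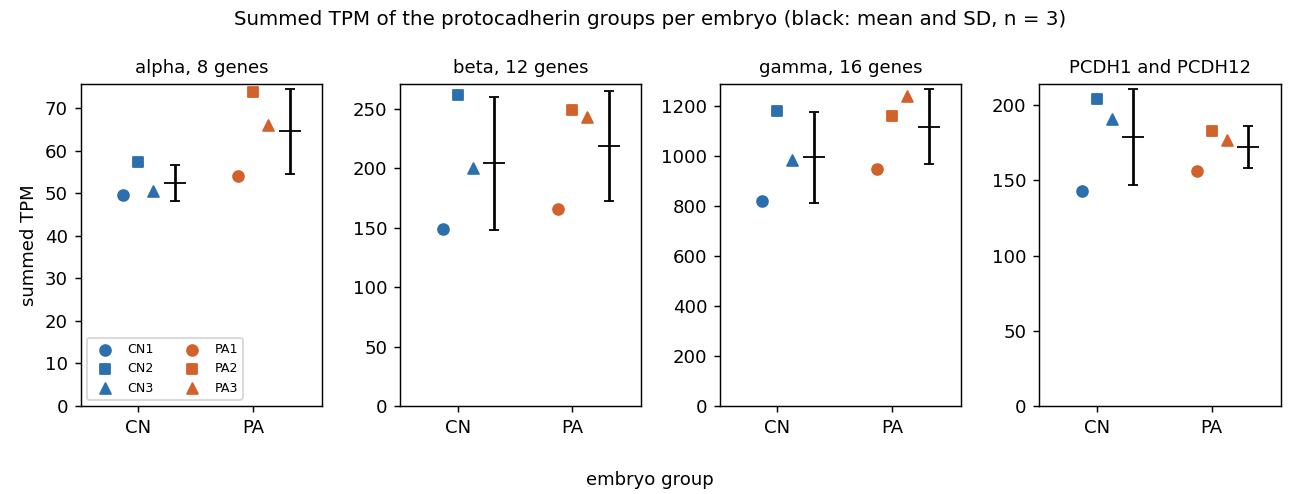
Summed TPM (y axis, from 0) of the alpha, beta and gamma groups and of PCDH1 with PCDH12 in each CN (blue) and PA (orange) embryo; black marks give the mean and SD of 3 embryos. CN1 is the lowest embryo in all 4 panels, and PA and CN overlap in each.

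Gene by gene, the question was whether embryos without a paternal genome transcribe any protocadherin at another level. 37 of the 38 genes passed the expression filter, and the exception was beta-1 (LOC100521438), with 1.0 to 4.0 counts per embryo against a detection floor of 3 counts. None of the 37 genes differed between PA and CN at an adjusted p below 0.05 and an absolute log2 fold change above 1 (edgeR quasi-likelihood test, two-sided), while 47 of all 1651 tested genes did, a background of 2.85%. DESeq2 also called 0 of the 37, against a background of 3.39%. At an unadjusted p below 0.05 there were 5 protocadherins, and 347 of all tested genes, or 21.0%. The count of 5 became 9 of 37 without CN2, 8 of 37 without PA1 and 8 of 38 without the expression filter. It was 3 of 37 without PA3 and 2 of 37 without PA2 or with library totals. Over all genes the counts were 295 of 1683 without CN2, 417 of 1692 without PA1 and 481 of 4266 without the filter. They were 296 of 1689 without PA3, 279 of 1688 without PA2 and 327 of 1651 with library totals. The estimates themselves leaned to one side. The log2 fold change was above 0 for 30 of the 37 genes, against 874 of 1651, or 52.9%, of all genes, and its median was 0.25 for protocadherins and 0.02 for all genes. The members share reads and tissues, so these counts are not independent observations. By group, 7 of 8 alpha, 9 of 11 beta and 13 of 16 gamma genes had positive values, with medians of 0.38, 0.20 and 0.28. For 28 of the 37 genes the 95% confidence interval lay wholly within a 2-fold change in either direction. The intervals of the other 9 genes reached past a 2-fold increase in PA, and none reached past a 2-fold decrease.

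**Figure D4:**
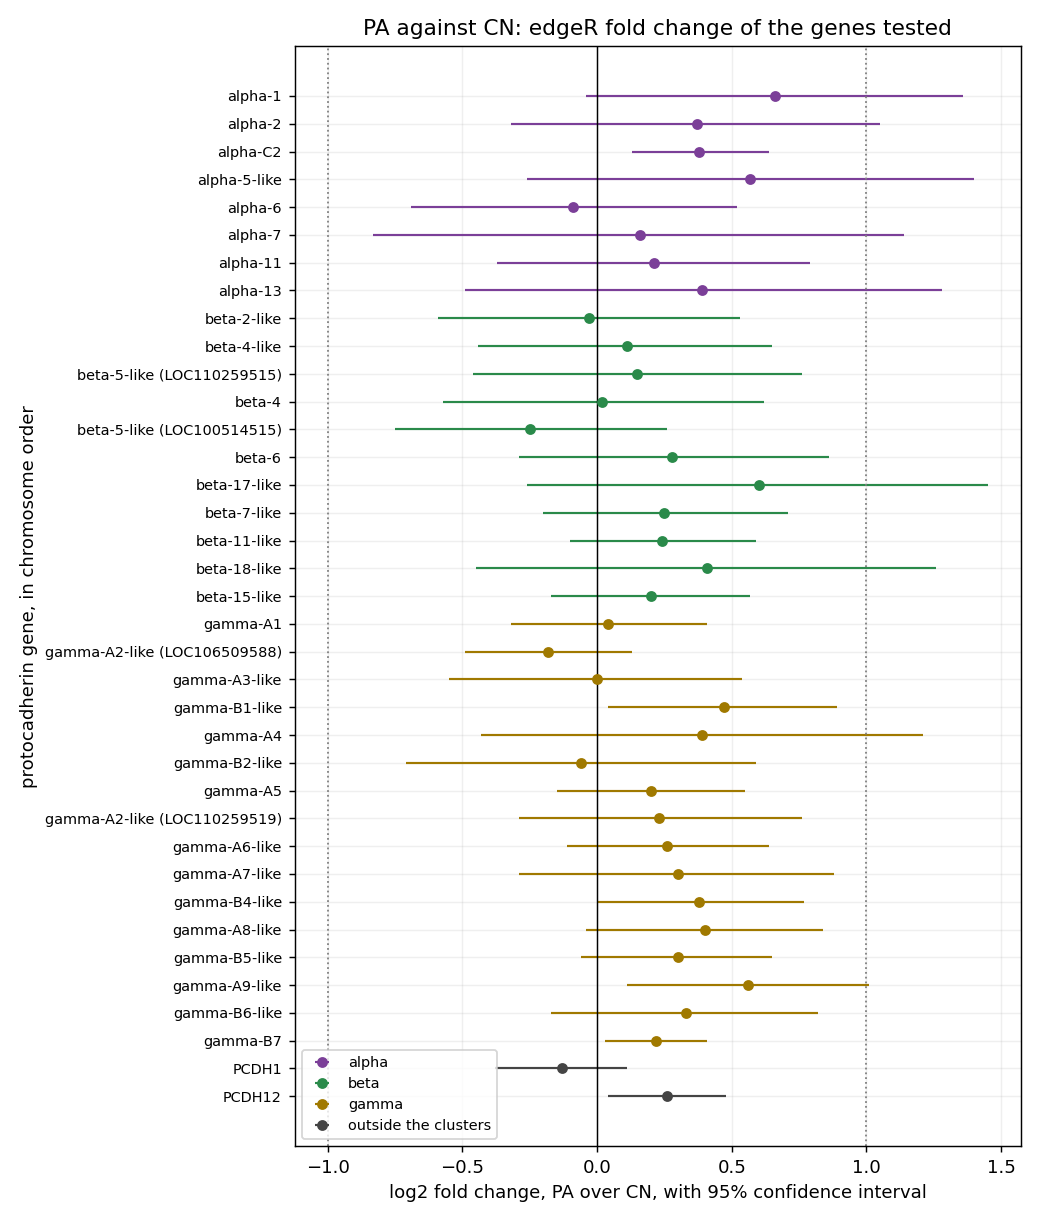
Log2 fold change, PA over CN (x axis), with its 95% confidence interval from edgeR for the 37 genes tested, in chromosome order and coloured by group; dotted lines mark a 2-fold change either way. Values range from -0.25 to 0.66, 30 points lie to the right of 0, and 5 intervals (alpha-C2, gamma-B1-like, gamma-A9-like, gamma-B7 and PCDH12) lie wholly above 0 before adjustment for the number of genes.

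Neural markers are given here because the clusters are best known from neurons. The list was chosen with earlier results of these data known, so its counts are a description and no test of the list. Of a list of 20 neural genes, 19 were in the tables and 16 were tested, and their summed TPM was 3276, 4069 and 3971 in CN and 4191, 5014 and 5035 in PA, without overlap. At an adjusted p below 0.05, 9 of the 16 had higher levels in PA, none by 2-fold or more, so that 0 met both criteria, while 107 of all 1651 tested genes, or 6.48%, had such an adjusted p in either direction. All PA embryos were above all CN embryos in TPM for 10 of the 16, against 83 of 1651, or 5.03%, of all genes. That background depends on the scale and was 242 of 1651, or 14.7%, in normalised CPM. The summed normalised CPM of the tested list was 7867, 8318 and 8623 in CN and 10710, 11786 and 10945 in PA. Of the 4 with the highest TPM, DPYSL3, TUBB4A and NCAN, which encode a collapsin response mediator, a neuronal tubulin and a proteoglycan, had log2 fold changes of 0.47, 0.41 and 0.56, and MAPK8IP1, a kinase scaffold, had -0.07, with adjusted p-values of 0.00729, 0.0395, 0.0209 and 0.647. The next 3 genes were chosen after their values were seen. PAX6, a transcription factor of the neural tube and eye, had 75.7, 104 and 94.2 TPM in CN and 143, 156 and 166 in PA (log2 fold change 0.84, standard error 0.09, adjusted p = 0.0016 from edgeR). SYT13, a synaptotagmin, had a log2 fold change of 0.70 (adjusted p = 0.00242). SNCB, which encodes beta-synuclein, had the largest estimate of the list and the opposite sign, with 7.34, 8.88 and 3.99 TPM in CN and 0.0505, 2.81 and 1.76 in PA, no overlap, and a value of -2.85 that did not pass (95% interval -5.08 to -0.61, adjusted p = 0.132). CPLX1, STMN2 and SOX2, which do not lie on chromosome 2, were listed at 0 in every embryo. The part of these markers in the protocadherin values was not tested.

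In the alpha cluster, the entry annotated as alpha-C2 (LOC100621701) stood far above the other genes. Its TPM was 33.9, 39.4 and 34.1 in CN and 39.7, 50.1 and 43.9 in PA. Each PA embryo exceeded each CN embryo, PA1 and CN2 being the closest. The log2 fold change was 0.38 (standard error 0.11, 95% interval 0.13 to 0.64, adjusted p = 0.0827 from edgeR), which did not pass. The adjusted p was 0.0396 with DESeq2 and 0.0343 without the length offset, its range over all alternatives being 0.0343 to 0.244, and in neither did the fold change reach 2. This entry is a locus rather than a single protein: its 5 transcripts begin with 4 different variable exons along the cluster, X1 and X5 sharing the C2 exon, and carry constant exons at their ends. Variant X1 (XM_021084894.1), whose first exon is the C2 exon next to the constant exons, had 108, 144 and 161 counts in CN and 244, 232 and 264 in PA. The groups did not overlap, and its log2 fold change was 0.80 (95% interval 0.30 to 1.31, adjusted p = 0.233 over all transcripts tested by edgeR). With DESeq2 the estimate was 0.78 and the adjusted p 0.00159, under the 2-fold criterion, and over the alternatives the adjusted p ran up to 0.539. Variant X3 (XM_021084896.1), which begins with the most upstream of these exons, had 318, 214 and 214 counts in CN and 208, 298 and 258 in PA, with overlap and a log2 fold change of -0.01. Variants X2 (XM_021084895.1) and X4 (XM_021084897.1) had log2 fold changes of 0.63 and 0.89 with intervals that included 0, and X5 (XM_021084898.1) was at 0 in all embryos. The difference between X1 and X3 in response was not tested.

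The other alpha genes were transcribed at low levels, with 8.2 to 113 counts per embryo. Alpha-11 (PCDHA11) was the highest of them, with 4.70, 5.55 and 4.47 TPM in CN and 3.38, 5.92 and 7.34 in PA. The PA embryos spanned the whole CN range, and the log2 fold change was 0.21 (95% interval -0.37 to 0.79). Alpha-1 (LOC100621895) had 1.37, 1.25 and 1.69 TPM in CN and 1.81, 2.43 and 2.23 in PA. It had the highest fold change of all tested members, 0.66 on the log2 scale, without overlap between groups, on 8.3 to 19.0 counts per embryo (standard error 0.30, adjusted p = 0.27 from edgeR). Alpha-5-like (LOC110259511) had 3.71, 1.80 and 3.64 TPM in CN and 3.71, 5.13 and 4.42 in PA, CN1 lying just under PA1. Alpha-1, alpha-5-like and alpha-C2 were the 3 protocadherins with all PA embryos above all CN embryos in TPM, a pattern found in 83 of the 1651 tested genes, or 5.03%. These counts depend on the scale, since in normalised CPM the pattern held for 6 protocadherins and for 242 of all genes, or 14.7%. With 3 embryos against 3, the two-sided exact permutation test on TPM cannot give a p below 0.1, which is the value of these genes.

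For alpha-6 (LOC100738826) TPM was 2.35, 2.5 and 2.38 in CN and 1.78, 2.74 and 1.95 in PA, the CN embryos lying close together and inside the PA range. It was the 1 alpha gene with a negative log2 fold change, -0.09 (95% interval -0.69 to 0.52). Alpha-2 (LOC100621803) had 1.29, 2.16 and 1.68 TPM in CN and 1.64, 2.77 and 1.93 in PA. Alpha-13 (LOC102160959) had 0.953, 2.26 and 1.68 in CN and 1.05, 2.57 and 2.51 in PA. Alpha-7 (LOC102160218) had 1.28, 2.43 and 0.784 in CN and 0.957, 2.14 and 1.75 in PA. In all 3 genes the groups overlapped, and the log2 fold changes of 0.37, 0.39 and 0.16 had intervals that included 0.

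The beta genes formed a series of similar levels. Without beta-1, mean TPM over the 6 embryos ran from 9.64 for beta-18-like (LOC100624174) to 28.0 for beta-4 (LOC100521779). The TPM of beta-4 was 18.9, 38.2 and 28.5 in CN and 17.8, 35.0 and 29.7 in PA, so that embryos of 1 group differed more than the group means did. Beta-4-like (LOC110259512), which shares much of its sequence, had 16.2, 31.6 and 26.8 in CN and 21.7, 32.3 and 21.5 in PA. Their log2 fold changes were 0.02 and 0.11, with 95% intervals of -0.57 to 0.62 and -0.44 to 0.65. From beta-4 down to beta-18-like, neighbours in this order of levels had overlapping ranges over the 6 embryos.

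Beta-11-like (LOC100737316) had 20.3, 24.2 and 29.7 TPM in CN and 24.6, 28.3 and 30.9 in PA. Beta-15-like (LOC106504267), whose transcript is the longest of the beta models, had 15.2, 28.5 and 20.4 in CN and 21.3, 23.8 and 24.1 in PA. Beta-7-like (LOC110259513) had 15.7, 18.4 and 16.7 in CN and 14.4, 16.8 and 27.4 in PA, where PA3 stood apart from the other 5 embryos. Beta-17-like (LOC100739498) was uneven within both groups, with 16.1, 30.6 and 10.5 TPM in CN and 15.7, 30.9 and 36.4 in PA. Its log2 fold change of 0.60 was the highest of the tested beta genes and had an interval of -0.26 to 1.45. Beta-2-like (LOC100514339) had 12.6, 25.1 and 16.4 TPM in CN and 14.9, 20 and 15 in PA, the PA range lying within that of CN.

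The 2 genes annotated as beta-5-like had estimates of opposite sign, and neither passed the test. LOC110259515 had 10.2, 19.0 and 12.9 TPM in CN and 8.80, 16.7 and 19.2 in PA, with a log2 fold change of 0.15. LOC100514515 had 11.4, 21.1 and 14.0 in CN and 10.7, 14.6 and 11.5 in PA, with a log2 fold change of -0.25, the lowest of all tested members (95% interval -0.75 to 0.26). These genes have 1713 words of sequence in common. Beta-6 (PCDHB6) and beta-18-like had log2 fold changes of 0.28 and 0.41 with intervals that included 0. In each of these beta genes the groups overlapped in TPM.

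In the gamma cluster, gamma-B7 (LOC100736974) held more than the other 15 genes together in each embryo. Its TPM was 471, 628 and 535 in CN and 517, 609 and 688 in PA, between 52.4% and 57.5% of the gamma sum and between 69.5% and 72.6% of the gamma counts. The share was much the same in both groups: 57.5%, 53.2% and 54.4% of TPM in CN against 54.4%, 52.4% and 55.5% in PA. The next gene, gamma-A9-like, had a mean of 48.1 TPM against 575 for gamma-B7. Gamma-B7 is the one gamma model that carries the constant exons, to which gamma variable exons are typically spliced. No gene named gamma-C is among the members. How many of the gamma-B7 counts fell on the constant exons was not tested, so its level is that of the annotated entry and not necessarily of the B7 isoform. The log2 fold change was 0.22 (standard error 0.08, 95% interval 0.03 to 0.41, adjusted p = 0.178 from edgeR). The PA embryos overlapped CN in TPM and stood above CN in normalised CPM, at 2259, 2440 and 2529 CPM against 1979, 2233 and 2000.

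Gamma-A9-like (LOC110259670) had the largest fold change of the gamma genes. Its TPM was 31.3, 42.6 and 45.7 in CN and 38.2, 64.1 and 66.7 in PA. PA2 and PA3 were above all CN embryos and PA1 was inside their range, and the log2 fold change was 0.56 (95% interval 0.11 to 1.01, adjusted p = 0.14 from edgeR). Without PA1 its adjusted p was 0.0392, still with a fold change below 2, and over all alternatives it ran from there to 0.358. This gene overlaps its neighbours on the same strand, and 51.5% of its 31-base words were its own. Gamma-B1-like (LOC106509585) had 7.52, 12.1 and 9.05 TPM in CN and 11.9, 12.2 and 13.2 in PA, with a log2 fold change of 0.47 (95% interval 0.04 to 0.89, adjusted p = 0.199 from edgeR).

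The other high gamma genes lay in a narrow band. Gamma-A6-like (LOC110259668) had 35.8, 56.5 and 42.6 TPM in CN and 48.4, 52.4 and 51.7 in PA. Gamma-B2-like (LOC100516485) had 31, 64.4 and 46.7 in CN and 29.6, 60.1 and 38.5 in PA. The first gave close values in the PA embryos and the second varied as widely in both groups. Gamma-B5-like (LOC100737660) had 32.2, 51.4 and 36.8 in CN and 36.5, 48.9 and 55.5 in PA. Gamma-B4-like (LOC106509590) had 29.3, 36.8 and 48.6 in CN and 47.2, 48.6 and 45.7 in PA. These B genes have 1570 words in common, and their log2 fold changes were 0.30 and 0.38 with intervals of -0.06 to 0.65 and -0.00 to 0.77. Gamma-A7-like (LOC110259517) had 27.2, 48.2 and 32.6 in CN and 42.2, 27.6 and 56.0 in PA, and gamma-A5 (LOC100516665) had 28.5, 44.9 and 34.9 in CN and 34.7, 42.5 and 40.4 in PA. None of these 6 genes separated the groups.

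The remaining gamma genes had mean TPM from 13.5 to 37.0. Gamma-A2-like (LOC106509588) was the 1 protocadherin with all PA embryos below all CN embryos in TPM, at 16.1, 18.7 and 19.4 against 20.9, 21.4 and 21.5, a pattern found in 273 of the 1651 tested genes, or 16.5%. In normalised CPM it held for 224 of all genes, or 13.6%, and again for 1 protocadherin. Its log2 fold change was -0.18 (95% interval -0.49 to 0.13). The other gene of that name, LOC110259519, had a log2 fold change of 0.23, and gamma-A1, gamma-A3-like, gamma-A4, gamma-A8-like and gamma-B6-like had 0.04, -0.00, 0.39, 0.40 and 0.33, all with intervals that included 0. Split by subfamily, the 10 gamma-A genes summed to 236, 369 and 291 TPM in CN and 291, 367 and 373 in PA. The 5 gamma-B genes other than gamma-B7 summed to 113, 185 and 158 in CN and 142, 187 and 179 in PA. The ratios of means were 1.15 and 1.11, and both subfamilies overlapped between groups. Gamma-A1 (LOC100515772) has 4 annotated variants with 3 exons each, and its counts moved between them from embryo to embryo, XM_021084925.1 for example taking 239, 97 and 0 counts in CN and 175, 98 and 0 in PA. The sum of the variants was steady at 202 to 283 counts, and the sum alone is therefore used.

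The 2 protocadherins outside the clusters were the next most abundant after gamma-B7. PCDH12 had 51.9, 71.7 and 65.2 TPM in CN and 65.7, 73.9 and 75.2 in PA. CN1 was lowest, CN2 lay inside the PA range, and the log2 fold change was 0.26 (95% interval 0.04 to 0.48, adjusted p = 0.152 from edgeR). In normalised CPM the groups did not overlap, at 222, 229 and 214 CPM in PA and 169, 197 and 189 in CN. Of 10 endothelial markers, 5 were tested, and their summed TPM was 590, 907 and 829 in CN and 684, 655 and 737 in PA, which overlapped. PECAM1, CDH5, KDR, TEK and EGFL7, the markers away from chromosome 2, were listed at 0 in every embryo. KLF2, a transcription factor induced by flow, had 161, 220 and 203 TPM in CN and 93.9, 123 and 131 in PA, with an edgeR estimate of -0.68 on the log2 scale and an adjusted p of 0.0131, while MEF2C, ANGPTL4 and ARAP3 had estimates of -0.04, 0.34 and 0.01, and the adjusted p of the 4 other than KLF2 was 0.584 to 0.973. The part of endothelial content in the PCDH12 value was not tested.

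PCDH1 as a gene did not pass the test. Its TPM was 91.5, 133 and 125 in CN and 90.5, 109 and 102 in PA, and the log2 fold change was -0.13 (95% interval -0.38 to 0.11, adjusted p = 0.516 from edgeR). Its variants gave different values. The gene has 2 annotated variants, of 5 exons (X1, XM_021084939.1) and 6 exons (X2, XM_021084940.1), and X2 contains an additional exon of 39 bases before the last. That exon holds a stop codon, with which the reading frame ends 26 bases into it, so that the coding length is 3714 bases in X1 and 3345 bases in X2, and the last 395 coding bases of X1 are not read in X2. The exon on the minus strand of Sscrofa11.1, printed in the direction of transcription because the variant difference turns on it, is shown in capitals between 20 bases of intron on either side.
PCDH1 exon of X2 with flanks, chr2:143481325-143481403: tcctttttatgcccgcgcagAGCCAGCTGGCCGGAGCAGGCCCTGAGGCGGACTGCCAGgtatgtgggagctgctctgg

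The intron ends in AG before this exon and begins with GT after it. Variant X2 had 181, 341 and 301 counts in CN and 77.0, 44.0 and 50.0 in PA. The highest PA embryo was well under the lowest CN embryo. Variant X1 had 1228, 1400 and 1505 counts in CN and 1408, 1625 and 1469 in PA, with overlap. As a share of PCDH1 TPM, X2 made up 12.8%, 19.5% and 16.6% in CN and 5.14%, 2.61% and 3.27% in PA. The means were 16.3% ± 3.37 (SD, n = 3) in CN and 3.67% ± 1.31 in PA. The two-sided exact permutation test of that share gave p = 0.1, the smallest value for 3 against 3. The log2 fold change of X2 was -2.29 (standard error 0.37, 95% interval -3.22 to -1.37), and that of X1 was 0.08 (95% interval -0.16 to 0.33).

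**Figure D5:**
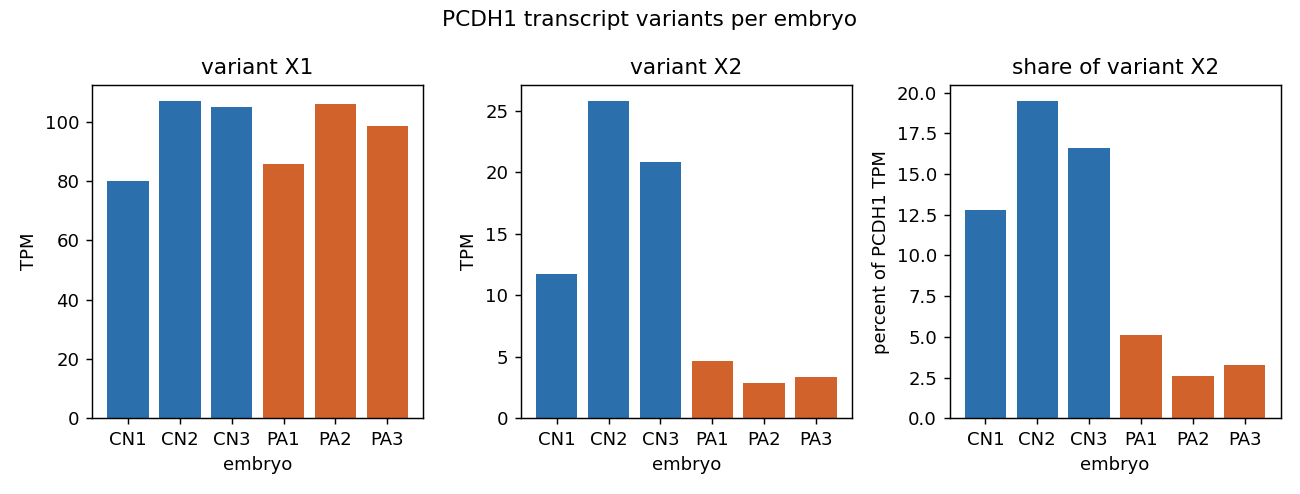
TPM of PCDH1 variants X1 and X2 and the share of X2 in PCDH1 TPM in percent (y axes, from 0), 1 bar for each CN (blue) and PA (orange) embryo. X2 takes 12.8% to 19.5% of PCDH1 TPM in CN and 2.61% to 5.14% in PA, while the X1 bars overlap between the groups.

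Across the 3487 transcripts tested by edgeR, X2 of PCDH1 did not pass the threshold, with an adjusted p of 0.0956. edgeR called 9 transcripts in all, a background of 0.258%, and 0 of the 42 protocadherin transcripts tested, 4 of which had an unadjusted p below 0.05, against 347 or 9.95% of all transcripts tested. DESeq2 called 113 transcripts, or 3.24%, and 1 protocadherin transcript, this X2 (log2 fold change -2.32, adjusted p = 6.54e-08), and over the alternatives its adjusted p ran up to 0.44. The variants are told apart by few positions, since 68 of the 7483 31-base words of X2 are absent from X1 and 28 of those of X1 are absent from X2. The uncertainty of dividing reads between the variants is not part of these errors, and the result was singled out after its values were seen.

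The embryos themselves differed in protocadherin level within each group. In normalised CPM CN1 was the lowest embryo for 19 of the 37 genes and PA2 the highest for 17. The median deviation from a gene's mean was -0.32 in CN1, 0.04 in CN2 and -0.16 in CN3 and -0.05, 0.25 and 0.07 in PA1 to PA3, on the log2 scale. CN2 thus lay among the PA embryos. Without CN1 the median log2 fold change of the members was 0.19, without CN2 it was 0.38, and without PA2 it was 0.19. The number of genes with a positive value ranged from 26 to 34 when single embryos were left out, and it was 28 when library totals replaced TMM factors.

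The genes around the clusters were examined for comparison. Of 44 other genes that start within 500000 bases of a cluster or between clusters, 34 were tested and none passed, with 19 values above 0 and a median log2 fold change of 0.01. Their summed TPM was 9913, 9821 and 9659 in CN and 8353, 8918 and 9438 in PA, lower in PA without overlap, whereas their sums in normalised CPM overlapped. IK, PFDN1 and ZMAT2, the 3 highest of them, had log2 fold changes of 0.01, -0.22 and -0.07 with intervals that included 0. NDUFA2, a subunit of mitochondrial complex I, had the lowest adjusted p and is named for that, with 978, 777 and 767 TPM in CN and 547, 485 and 464 in PA (log2 fold change -0.69, adjusted p = 0.0656 from edgeR). Its adjusted p was 0.00532 with DESeq2. With edgeR it was 0.0134 with library totals, 1.3e-05 without the expression filter and 0.0171 with the replicate block. It was also below 0.05 without PA1, above 0.05 in the remaining alternatives, and none called NDUFA2. HDAC3, a histone deacetylase encoded between the gamma cluster and PCDH1, had a log2 fold change of -0.06, and TAF7, a general transcription factor encoded between the beta and gamma clusters, had 0.23 (95% intervals -0.25 to 0.13 and 0.04 to 0.42). Their adjusted p-values were 0.748 and 0.142.

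Partners, regulators and relatives of protocadherins could be followed to a small extent. Of a list of 54 such genes, 53 were in the tables, 7 of them on chromosome 2, and 8 were tested, while 44 were listed at 0. CDHR2 and CDHR5, cadherin-related proteins that join the tips of intestinal and renal microvilli, were the 2 that passed. CDHR2 had 65.5, 85.7 and 79.8 TPM in CN and 20.1, 9.88 and 20.9 in PA, and the edgeR estimate was -2.10 on the log2 scale (standard error 0.25, 95% interval -2.68 to -1.52, adjusted p = 0.00205). CDHR5 had 88.5, 115 and 109 in CN against 25.6, 22.3 and 27.1 in PA, and an estimate of -1.98 (adjusted p = 0.000106). Both fell in PA, as did 45 of the 47 genes called over all features. The catenin CTNNA1, which links classical cadherins to the cytoskeleton, had a log2 fold change of 0.18, the maintenance methyltransferase DNMT1 had 0.12 and the zinc finger protein WIZ had 0.28. None of these passed, with adjusted p-values from 0.202 to 0.486. CTCF was not tested, at a mean of 3.41 counts, and the cohesin genes RAD21, SMC1A, SMC3, STAG1 and STAG2 were listed at 0. Since 99.65% to 99.71% of the counts lay on chromosome 2, values at or near 0 are no evidence of absent transcription for genes elsewhere.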

How the data were processed

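Total RNA of 3 PA and 3 CN embryos was sequenced after poly(A) selection with a kit that does not mark strand. The authors quantified reads with Salmon 1.3.0 and deposited estimated counts, TPM and effective lengths per transcript. Transcripts were joined to genes by NCBI Sus scrofa Annotation Release 106 of Sscrofa11.1, from which sequences were also read, and 26 had no entry there. Of these, 2 taken as H19 and IGF2-AS, were placed on chromosome 2 by their order in the tables.

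Summed counts were rounded and tested in R 4.3.3 with edgeR 4.0.16 (TMM, length offset, filterByExpr with a minimum count of 10 and total of 15, robust quasi-likelihood test, Benjamini-Hochberg adjustment over all features tested). A call required an adjusted p below 0.05 and an absolute log2 fold change above 1. TPM was compared by exact permutation on log2(TPM + 0.1). Normalised CPM are counts divided by the same offsets. DESeq2 1.42.0, other scalings and filters, the replicate number as a block and the omission of each embryo were alternatives. The code was tested on simulated counts.

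At 3100284 to 3573406 counts, 3 counts, taken as the floor, equal 0.84 to 0.968 CPM, for counting error only. No pair of embryos of the same group agreed within sampling noise (chi-square per degree of freedom 5.233 to 84.418). Embryos came from 2 gilts per group, so at least 2 of the 3 in each group shared a gilt, and p-values measure the spread between these embryos. The members, gene lists and markers were chosen with earlier results of these data known. Every tested member was named, with values per embryo for the 8 highest in each group. In the related, neighbouring and marker lists the genes called and the 4 with the highest TPM were named. NDUFA2, PAX6, SYT13 and SNCB, the genes listed at 0 and CTCF were added after their values were seen.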

Additional observations from a re-analysis of the deposited data

How the results depend on the processing

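With edgeR, 0 protocadherin genes were called under each alternative, and DESeq2 also called 0 genes. The count over all genes rose from 47 to 76 without the expression filter and was 32 to 50 with single embryos left out. For protocadherin transcripts DESeq2 called 1, and over all transcripts it called 113 against 9. The neighbouring genes had 0 and the related genes 2 calls in every alternative. In TPM, the number of protocadherin genes without overlap rose from 4 to 7 when TPM was rescaled by TMM factors. Over all 1651 tested genes, the PA embryos all lay above CN for 83 and below for 273 in TPM. In normalised CPM, which also uses TMM factors, these counts were 242 and 224. Such counts thus depend on the scale for all genes and not for protocadherins alone. PA and CN share replicate numbers with no stated pairing. Same-numbered deviations correlated at 0.225, 0.112 and 0.0269 over 1651 genes, and 3 of 6 embryos correlated best with their own number. With the replicate block 42 genes, 0 protocadherin genes and 0 protocadherin transcripts were called.

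Log2 fold changes near 0 changed sign. Beta-4 (LOC100521779) and gamma-A1 (LOC100515772) became -0.03 and -0.02 with library totals, gamma-A3-like (LOC110259516) became 0.01 without the length offset, and XM_021084896.1 became 0.01 with the replicate block. With single embryos left out the ranges were -0.29 to 0.04 for alpha-6 (LOC100738826), -0.13 to 0.61 for alpha-7 (LOC102160218), -0.19 to 0.23 for beta-2-like (LOC100514339), -0.11 to 0.28 for beta-4-like (LOC110259512) and -0.20 to 0.24 for beta-4. They were -0.06 to 0.14 for gamma-A1, -0.24 to 0.14 for gamma-A3-like, -0.39 to 0.18 for gamma-B2-like (LOC100516485), -0.16 to 0.21 for XM_021084896.1 and -1.24 to 0.87 for XM_021084925.1. PCDH1 variant X2 stayed between -2.62 and -2.10, its adjusted p lying between 6.54e-08 and 0.44. The cause of these changes was not tested. The gamma sum kept a ratio above 1, from 1.03 to 1.24, and the beta ratio ranged from 0.95 without CN1 to 1.26 without CN2. The ratio of PCDH1 with PCDH12, 0.96 with all embryos, also turned and was above 1 without CN2.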
